A study of Mus musculus with 8 samples.

Results

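The proteasome is the barrel-shaped protease that degrades ubiquitin-tagged proteins in every cell. Its genes were followed in RNA from mouse peripheral retina at postnatal day 12. They were chosen by symbol alone, as every gene whose name starts with Psma, Psmb, Psmc, Psmd or Psme and a digit, apart from Psmb8 and Psmb9. This rule found 42 of the 23284 genes in the count tables, with 17 genes of the core particle (Psma, Psmb), 21 of the regulatory particle (Psmc, Psmd) and 4 activators (Psme). Psmc3ip, 1 of the 42, matches by its letters only, since it encodes a partner of meiotic recombinases and is no proteasome subunit. In 4 libraries, labelled RbnullTET-MYCN and called TET-MYCN here, the genotype label combines Rb null with TET-MYCN. The series text lists Pax6alpha-enhancer-Cre, the transactivator allele Rosa26LSL-RTTA and the transgene TRE-MYCN for them without repeating the floxed Rb allele, and the labels name no doxycycline. In the other 4, labelled Rbnull, the text gives Pax6alpha-enhancer-Cre with Rblox/lox. Both groups therefore carry the same Cre driver, which is active in the peripheral retina, and the dissected tissue can hold cells without Cre. The question of the design is how retina that lacks Rb changes when MYCN is added.

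In the core particle, rings of alpha subunits gate the entry of proteins and rings of beta subunits carry the cutting sites. The regulatory particle caps the core. Its base holds a ring of ATPases that unfold substrates, and its lid removes ubiquitin. Activators of the Psme family can cap the core instead. Mammalian cells match these subunits by raising most of their genes together through the transcription factor encoded by Nfe2l1. Interferon replaces the beta catalytic subunits by inducible ones, and photoreceptors are known to depend heavily on protein turnover.

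Gene counts per library were 16166000 to 22873979 in the TET-MYCN libraries and 14872131 to 20007977 in the Rb-null libraries, and levels are given as CPM, the count scaled to a common library size after TMM normalization. A level of 0.130 to 0.202 CPM stood for 3 counts. Mycn stood at 201, 219, 272 and 276 CPM across TET-MYCN libraries 1 to 4, against 246, 339, 108 and 232 CPM in Rb-null libraries 1 to 4. Rb1 stood at 151, 179, 164 and 123 CPM in the TET-MYCN libraries, against 184, 174, 147 and 138 CPM in the Rb-null libraries. Neither gene separated the groups (adjusted p = 0.934 for Mycn and 0.883 for Rb1, edgeR's quasi-likelihood test). Whether reads of the transgene were counted under the mouse gene Mycn is not stated. The level of Mycn can therefore neither bear out nor go against the label TET-MYCN, which is used here as the label only. There is also no group with intact Rb to set Rb1 against. All 10 rod marker genes listed were measured, and their summed level was 2943 to 6837 CPM in the TET-MYCN libraries and 4164 to 18814 CPM in the Rb-null libraries. The 6 markers of proliferating cells summed to 2120 to 2645 CPM in the TET-MYCN libraries and 1271 to 2580 CPM in the Rb-null libraries. Lower in TET-MYCN were all 10 rod, 6 cone and 6 bipolar markers and 5 of 6 Müller glia markers. All 6 proliferation markers were higher, and none of these had an adjusted p under 0.05. Bipolar sums did not overlap (449 to 543 CPM in TET-MYCN, 574 to 1139 CPM in Rb-null). Lens sums were 8.48 to 40.2 CPM in TET-MYCN and 17.9 to 408 CPM in Rb-null. The part of these cell types in the values of the proteasome genes was not tested, and in bulk tissue fewer cells of a type and less RNA per cell cannot be told apart. Nothing in the labels says that libraries are separate animals, and the p-values then cover only the variation among libraries, part of which may be technical.

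Proteasome transcripts were not called as different between the groups. Of the 42 genes 41 passed the filter on low counts, and 0 of them had an adjusted p under 0.05 in edgeR's quasi-likelihood test, where 0.0596% of the 15106 genes tested did (0.0530% higher and 0.00662% lower in TET-MYCN). At an unadjusted p under 0.05 the members numbered 0 as well, against 15.8% of all genes tested. DESeq2 and limma-voom also called 0 members, where DESeq2 called 3.51% and limma-voom 0% of all genes. With either tool 0 members had an unadjusted p under 0.05, against 17.1% of all genes with DESeq2 and 15.0% with limma-voom. The smallest adjusted p among the members was 0.368, for Psmd13. The 95% intervals of the fold change bound how large a difference could have been missed: they lay within 1.5-fold in either direction for 39 of the 41 members, the exceptions being Psmb10 (log2 interval -0.68 to 0.29) and Psmb11 (-0.15 to 0.90).

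The values leaned to one side all the same. A positive log2 fold change was found for 38 of the 41 members, against 52.2% of all genes tested. The median was 0.13 for the 16 core members tested, 0.07 for the 21 of the regulatory particle and 0.09 for the 4 activators, beside 0.012 over all genes tested. These are 1.09-fold, 1.05-fold and 1.06-fold. TET-MYCN 3 was the highest of the 8 libraries for 32 of the 41 members, against 22.0% of all genes tested. The lean rested on that library: without it 19 of the 41 members were positive, and the medians became -0.030 for the core, 0.0036 for the regulatory particle and 0.014 for the activators. In that fit 0 members and 1.52% of all genes tested had an adjusted p under 0.05.

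**Figure D1:**
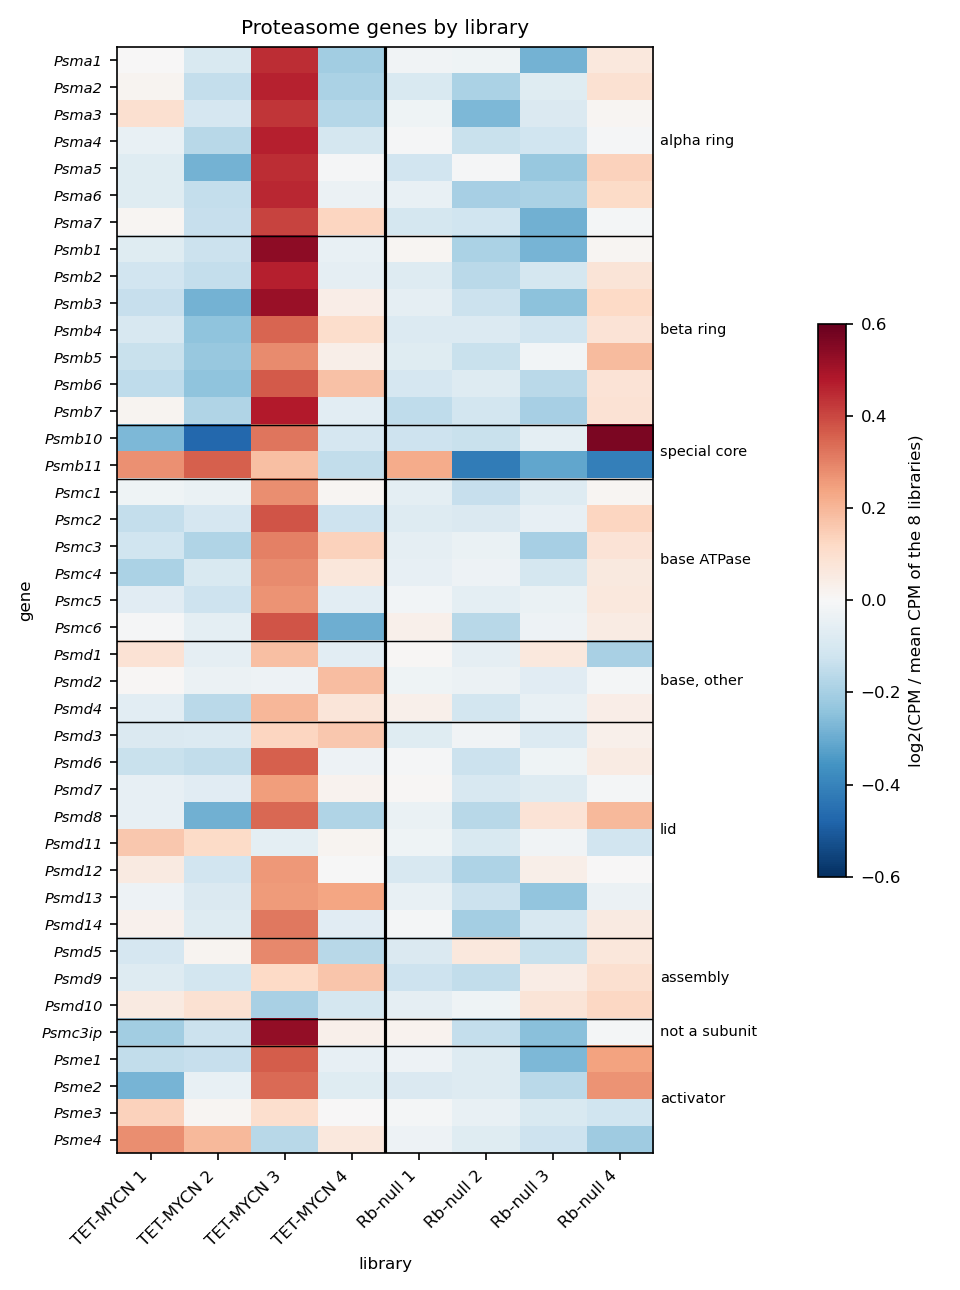
Level of each of the 41 tested genes (rows, grouped by role) in each library (columns, TET-MYCN left of the line, Rb-null right), as log2 of its CPM over the mean CPM of the 8 libraries. The column of TET-MYCN 3 is the highest of all 8 for 32 genes, and Psmd2, Psmd10, Psmd11 and Psme4 are among those where it is not.

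The alpha ring held 7 constitutive genes, and all of them were highest in TET-MYCN 3. Psma7, an alpha subunit, had the smallest p of the ring and stood at 117, 105, 154 and 127 CPM across TET-MYCN libraries 1 to 4, against 108, 107, 95.1 and 115 CPM in Rb-null libraries 1 to 4. TET-MYCN 1, 3 and 4 lay above every Rb-null library and TET-MYCN 2 within their range. The log2 fold change of Psma7 was 0.24 ± 0.13 (SE; adjusted p = 0.378, edgeR's quasi-likelihood test), and 0.13 without TET-MYCN 3. Psma3, whose protein contributes to the gate, stood at 100.2, 87.4, 126 and 83.1 CPM in the TET-MYCN libraries, against 92.0, 77.6, 88.2 and 94.3 CPM in the Rb-null libraries. Its log2 fold change was 0.17 ± 0.14, and 0.036 without TET-MYCN 3. Psma6 stood at 88.5, 84.2, 127 and 90.9 CPM in the TET-MYCN libraries, against 90.1, 81.0, 81.5 and 100.7 CPM in the Rb-null libraries, so that TET-MYCN 1, 2 and 4 all lay inside the Rb-null range. The other 4 alpha genes had log2 fold changes of 0.09 to 0.13, and each turned negative without TET-MYCN 3.

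Psma4, another gate subunit of the alpha ring, is 1 of 4 members whose upstream sequence holds CACGTG, the core letters that MYC and MAX proteins bind. These sequences are shown because the transgene encodes such a factor. Promoter windows of 35 members were found in RefSeq (GRCm38.p6), and in the 250 bases before the annotated start CACGTG occurred in 4 of the 35 (11.4%), against 6.02% of the 32851 windows in the table. Here and for the motifs below, the member share counts genes and the other share counts windows. The 35 members have 38 windows, so these shares are not in like units. The palindrome reads alike on both strands. The 150 bases before the start are given 5′ to 3′ on the gene's own strand, with CACGTG in capitals. In Psmd9 capitals also mark TGACCCCGC, a match to TGACNNNGC, the letters searched for the element through which Nfe2l1 acts.
Psma4 (chr9:54950709-54950858, plus strand): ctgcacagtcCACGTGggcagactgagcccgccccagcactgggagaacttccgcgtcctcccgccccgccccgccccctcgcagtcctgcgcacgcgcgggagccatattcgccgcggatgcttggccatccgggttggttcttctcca
Psmb10 (chr8:105938393-105938542, minus strand): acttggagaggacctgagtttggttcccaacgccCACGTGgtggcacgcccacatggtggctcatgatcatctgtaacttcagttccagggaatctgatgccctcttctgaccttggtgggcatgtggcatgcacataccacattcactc
Psmd9 (chr5:123228040-123228189, plus strand): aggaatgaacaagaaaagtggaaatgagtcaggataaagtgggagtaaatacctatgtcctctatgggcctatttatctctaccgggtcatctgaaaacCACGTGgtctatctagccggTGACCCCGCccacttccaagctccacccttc
Psme3 (chr11:101316063-101316212, plus strand): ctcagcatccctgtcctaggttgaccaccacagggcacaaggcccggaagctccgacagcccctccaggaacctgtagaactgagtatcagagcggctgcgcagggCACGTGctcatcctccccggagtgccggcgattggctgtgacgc

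None of the 4 genes with CACGTG passed the test, and their values lay on both sides of 0. Psma4 stood at 90.4, 83.2, 129 and 86.8 CPM across TET-MYCN libraries 1 to 4, against 92.7, 85.0, 85.9 and 92.9 CPM in Rb-null libraries 1 to 4 (log2 fold change 0.13 ± 0.14). Psmd9, a factor that helps to assemble the base, had a log2 fold change of 0.06 ± 0.11, and 0.029 without TET-MYCN 3. Psmb10 and Psme3, described below, had -0.19 ± 0.22 and 0.13 ± 0.08. TGACNNNGC, searched on both strands, was found upstream of 5 of the 35 members (14.3%, against 10.2% of all windows): Psmb5, Psmb6, Psmc6, Psmd12 and Psmd9. CCAAT, also on both strands, was found upstream of 14 (40.0%, against 33.8%), 7 of them among the 13 core members with a window. A match describes letters only and marks no binding site.

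The beta ring also held 7 constitutive genes, all with a positive log2 fold change, and all were highest in TET-MYCN 3. Psmb1 had the smallest p among them and stood at 101, 97.5, 155 and 103 CPM in the TET-MYCN libraries, against 107, 93.4, 87.9 and 108 CPM in the Rb-null libraries. Apart from TET-MYCN 3 its TET-MYCN values all lay inside the Rb-null range. Psmb7, the trypsin-like catalytic subunit, stood at 129, 113, 178 and 123 CPM in the TET-MYCN libraries, against 115, 119, 111 and 136 CPM in the Rb-null libraries (log2 fold change 0.17 ± 0.15; 0.015 without TET-MYCN 3). Psmb6, the caspase-like subunit, stood at 114, 106, 163 and 143 CPM in the TET-MYCN libraries, against 118, 119.7, 113 and 133 CPM in the Rb-null libraries (0.12 ± 0.14; 0.00066 without TET-MYCN 3). Psmb5, the chymotrypsin-like subunit targeted by bortezomib, stood at 84.9, 79.6, 113 and 95.5 CPM in the TET-MYCN libraries, against 88.5, 84.9, 91.9 and 106 CPM in the Rb-null libraries. Its log2 fold change was 0.0074 ± 0.13, the closest to 0 of all core members, and -0.099 without TET-MYCN 3. The groups overlapped for all 3 catalytic genes. Pseudogenes named after Psmb5, Psmb6 and Psmb7 are annotated. Reads aligned to several places stayed out of the counts, and how many of these belong to the 3 genes is not known.

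The core particle also has variants restricted to some tissues. Psmb11 belongs to the thymus form of the proteasome and stood at 2.16, 2.29, 2.02 and 1.61 CPM in the TET-MYCN libraries, against 2.09, 1.34, 1.44 and 1.35 CPM in the Rb-null libraries. Rb-null 1 lay among the TET-MYCN values, and the log2 fold change of 0.37 ± 0.24 had an adjusted p of 0.472 (edgeR's quasi-likelihood test). Psma8, the testis paralog of Psma7, was the only member that failed the filter on low counts. It had 7, 3, 1 and 4 reads in TET-MYCN libraries 1 to 4, and 4, 3, 0 and 1 reads in Rb-null libraries 1 to 4, at or near the floor of 3 counts.

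**Figure D2:**
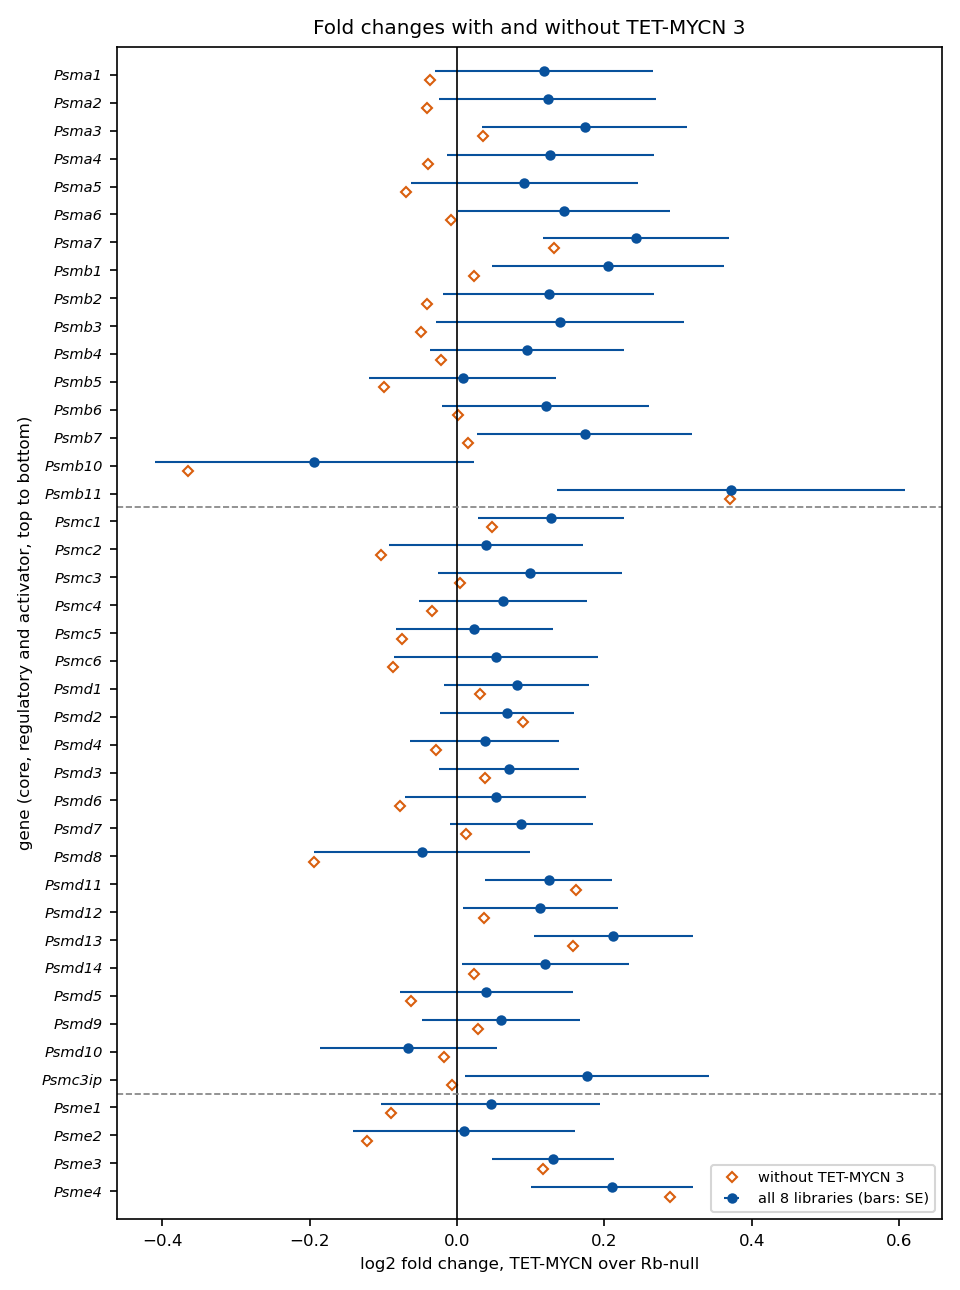
Log2 fold change of TET-MYCN over Rb-null (x axis) for each of the 41 tested genes (y axis), from all 8 libraries (filled circles, bars give the SE) and without TET-MYCN 3 (open diamonds). With all libraries 38 values are above 0, and without TET-MYCN 3 they are 19.

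TET-MYCN 3 differed from the rest of its group by transcript length, across the whole transcriptome. Over all tested genes with exons of under 1 kb in total, its CPM was a median of 1.41 times the mean of TET-MYCN 1, 2 and 4. The ratio was 1.29 for 1 to 1.5 kb, 1.19 for 1.5 to 2 kb, 1.09 for 2 to 3 kb, 0.950 for 3 to 5 kb and 0.762 over 5 kb. Core genes are short, with a median exon length of 1174 bases against 1636 in the regulatory particle and 3180 over all genes tested. Their median ratio in TET-MYCN 3 was 1.46, against 1.23 for the regulatory particle and 1.20 for the activators. Of the 41 members 28 lay above the median of all genes in their own length class. The 6 members under 1 kb had a median log2 ratio of 0.45, beside 0.50 for all genes of that length, and the 14 of 1 to 1.5 kb had 0.51, beside 0.37. The 9 members of 1.5 to 2 kb had 0.35, beside 0.25, and the 8 of 2 to 3 kb had 0.12, beside 0.12. The 3 members of 3 to 5 kb had 0.19, beside -0.075, and the 1 over 5 kb, Psme4, had -0.35, beside -0.39. TET-MYCN 3 also had the lowest share of reads assigned to no gene feature, 15.1%, against 17.7% to 19.7% in the other 7 libraries. Its share aligned to several places was the highest, 12.8%, against 9.05% to 11.7%. Whether reads without a feature lay in introns or outside genes is not known. The part of transcript length or of these shares in the fold changes was not tested.

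**Figure D3:**
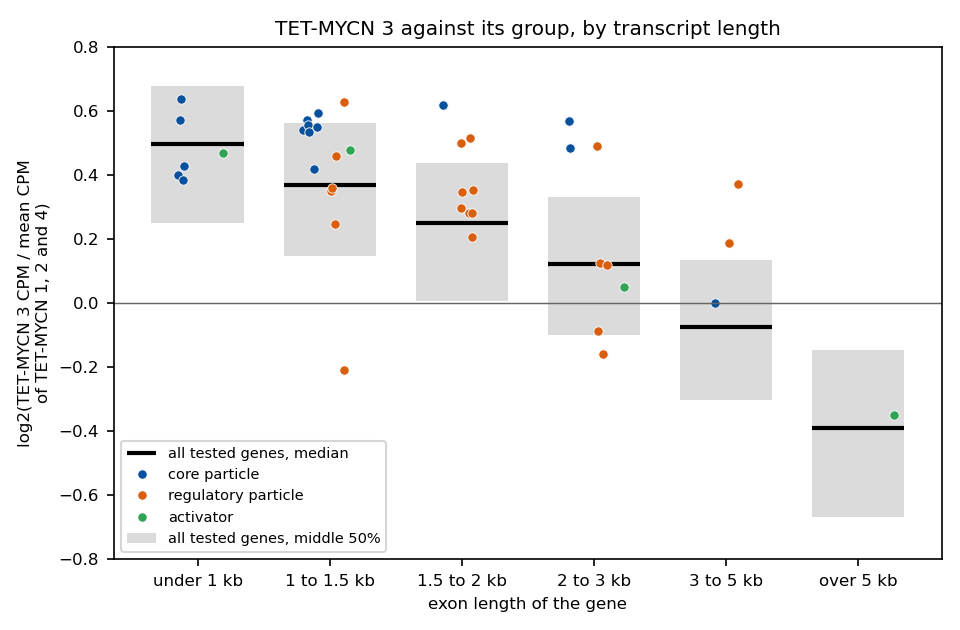
Log2 ratio of CPM in TET-MYCN 3 to the mean CPM of TET-MYCN 1, 2 and 4 (y axis) by exon length (x axis), for all tested genes (black lines are medians, grey boxes the middle 50%) and for the 41 proteasome genes (points by particle). The all-gene median falls with length from 0.50 under 1 kb to -0.39 over 5 kb, and Psme4, the longest member, lies at -0.35.

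The Rb-null libraries do not involve TET-MYCN 3 and were looked at in the same way, each against the mean of the other 3 of its group. In Rb-null 4 the members stood at a median log2 ratio of 0.13 and all genes under 1.5 kb at 0.18. In Rb-null 2 the members stood at -0.076 and these short genes at -0.055, and in Rb-null 3 the members stood at -0.058 and the short genes at -0.075. In Rb-null 1 the signs differed, with members at 0.0084 and short genes at -0.047. The ratios of Rb-null 1, 2 and 3 have the high Rb-null 4 in their denominator, so the Rb-null ratios are not separate values. The same holds for the ratios of TET-MYCN 1, 2 and 4, which have TET-MYCN 3 in their denominator. TET-MYCN 2 was the lowest of the 8 libraries for 11 members, and Rb-null 2 and 3 for 9 each. The mean log2 CPM of the 14 constitutive core genes minus that of the 17 subunits of the regulatory particle was -0.13, -0.20, 0.078 and -0.15 in TET-MYCN libraries 1 to 4, against -0.15, -0.15, -0.23 and -0.065 in Rb-null libraries 1 to 4. Core transcripts were thus high relative to regulatory ones in TET-MYCN 3 and, to a lesser degree, in Rb-null 4, and the other 3 TET-MYCN values lay within the Rb-null range.

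The base of the regulatory particle held 6 ATPase genes, whose log2 fold changes were 0.02 to 0.13 and of which 4 were negative without TET-MYCN 3. Psmc1 stood at 132, 131, 164 and 136 CPM in the TET-MYCN libraries, against 129.8, 122, 128 and 136 CPM in the Rb-null libraries. Its log2 fold change of 0.13 ± 0.10 became 0.047 without TET-MYCN 3. Psmc3 stood at 142, 136, 190.3 and 170.2 CPM in the TET-MYCN libraries, against 149, 150.4, 134 and 163 CPM in the Rb-null libraries (0.10 ± 0.12; 0.0036 without TET-MYCN 3). Psmd1 and Psmd2, the large scaffold subunits of the base, and the ubiquitin receptor Psmd4 had log2 fold changes of 0.08 ± 0.10, 0.07 ± 0.09 and 0.04 ± 0.10. Without TET-MYCN 3 these were 0.031 for Psmd1, 0.089 for Psmd2 and -0.029 for Psmd4. Psmd2 stood at 265, 258, 258 and 299.9 CPM in the TET-MYCN libraries, against 259, 258, 252 and 262 CPM in the Rb-null libraries, a gene named after its values were seen because TET-MYCN 3 was not raised there. Psmc3ip, the recombinase partner caught by its symbol, stood at 24.5, 25.9, 40.9 and 29.0 CPM in the TET-MYCN libraries, against 28.8, 25.6, 23.8 and 28.1 CPM in the Rb-null libraries. Like the short core genes it was highest in TET-MYCN 3.

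The lid held 8 genes, 7 with a positive log2 fold change. Psmd13, a scaffold subunit of the lid, stood at 82.4, 79.1, 100.3 and 99.1 CPM across TET-MYCN libraries 1 to 4, against 81.5, 76.8, 71.2 and 82.0 CPM in Rb-null libraries 1 to 4. TET-MYCN 1, 3 and 4 lay above all Rb-null libraries and TET-MYCN 2 inside their range. The log2 fold change was 0.21 ± 0.11 and 0.16 without TET-MYCN 3. Sirt3 overlaps Psmd13 on the other strand, as other coding genes do for Psma4, Psmb7, Psmc3, Psmc3ip, Psmd1, Psmd5, Psmd9 and Psme1 (9 of 42 members). Reads assigned to several genes stayed out of the counts. With the strand setting unknown, how many reads of such pairs were left out or came from the other strand cannot be told. Psmd11, another lid scaffold, was lowest of its group in TET-MYCN 3. It stood at 75.7, 73.3, 65.0 and 68.5 CPM in the TET-MYCN libraries, against 66.4, 63.6, 66.7 and 62.5 CPM in the Rb-null libraries (0.12 ± 0.09; 0.16 without TET-MYCN 3), and only TET-MYCN 3 lay within the Rb-null range. Psmd12 stood at 74.1, 65.8, 85.6 and 71.2 CPM in the TET-MYCN libraries, against 66.9, 62.7, 73.1 and 71.5 CPM in the Rb-null libraries (0.11 ± 0.10; 0.037 without TET-MYCN 3). Psmd8 was the lid gene with a negative value, -0.05 ± 0.15, and Psmd14, which cuts ubiquitin from substrates, had 0.12 ± 0.11. Psmd3, Psmd6 and Psmd7 had 0.07 ± 0.09, 0.05 ± 0.12 and 0.09 ± 0.10. Without TET-MYCN 3 the values were -0.19 for Psmd8, 0.023 for Psmd14, 0.038 for Psmd3, -0.077 for Psmd6 and 0.012 for Psmd7. Of the base assembly factors Psmd5, Psmd9 and Psmd10, the last had a negative value, -0.07 ± 0.12, and -0.017 without TET-MYCN 3.

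None of the 4 activator genes passed the test. Psme3, which encodes a nuclear activator, was the only member whose groups did not overlap. Its level was 146, 134, 143 and 133 CPM across TET-MYCN libraries 1 to 4, against 132, 129, 125 and 122 CPM in Rb-null libraries 1 to 4. Of the members 1 of 41 (2.44%) had groups apart in this direction, against 4.36% of all genes tested, and 0 in the other direction, against 3.29%. The log2 fold change of 0.13 ± 0.08 had an adjusted p of 0.474 (edgeR's quasi-likelihood test). Psme4, which encodes a large activator, stood at 130.2, 123, 95.5 and 112 CPM in the TET-MYCN libraries, against 105, 102, 98.4 and 92.6 CPM in the Rb-null libraries. TET-MYCN 1, 2 and 4 lay above every Rb-null library and TET-MYCN 3 within their range. Its log2 fold change was 0.21 ± 0.11 (adjusted p = 0.382), and 0.29 without TET-MYCN 3 (adjusted p = 0.108, the smallest of any member in that fit).

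Psme1 and Psme2 encode the partner subunits of the activator that interferon induces. Psme1 stood at 49.9, 50.3, 71.3 and 53.5 CPM in the TET-MYCN libraries, against 54.2, 52.5, 45.9 and 65.5 CPM in the Rb-null libraries (log2 fold change 0.05 ± 0.15; -0.089 without TET-MYCN 3). Psme2 stood at 30.0, 35.2, 46.0 and 34.5 CPM in the TET-MYCN libraries, against 34.3, 34.4, 32.4 and 43.8 CPM in the Rb-null libraries (0.0091 ± 0.15; -0.12 without TET-MYCN 3). In both genes TET-MYCN 3 and Rb-null 4 stood above the other 6 libraries. The same libraries were the top ones for the mean log2 CPM of the 14 constitutive core genes (7.12 and 6.76). All genes under 1.5 kb stood there at median log2 ratios of 0.41 and 0.18 to the rest of the group. Psme1 and Psme2 are short, at 1112 and 976 bases. In TET-MYCN 3 the ratios were 0.48 for Psme1 and 0.47 for Psme2, beside medians of 0.37 and 0.50 for genes of like length. The part of interferon or length in this order was not tested. Psmb10, the interferon-inducible subunit that replaces Psmb7, stood at 11.5, 9.996, 17.3 and 12.9 CPM in the TET-MYCN libraries, against 12.7, 12.6, 13.3 and 20.5 CPM in the Rb-null libraries. Its log2 fold change was -0.19 ± 0.22 (adjusted p = 0.717) and -0.37 without TET-MYCN 3, but -0.0039 without Rb-null 4. Per kb of exon, Psmb10 had 7.86%, 7.83%, 8.61% and 9.35% of the level of Psmb7 in TET-MYCN libraries 1 to 4, against 9.77%, 9.43%, 10.6% and 13.3% in Rb-null libraries 1 to 4, with Rb-null 4 the highest. The highest TET-MYCN value and the lowest Rb-null value lay close together, and the ratio was chosen with the gene values known, so it is given without a test. The summed level of 5 interferon response genes (Irf1, Ifit1, Ifit3, Isg15 and Gbp2) was 29.0, 25.8, 50.5 and 30.6 CPM in the TET-MYCN libraries, against 28.4, 39.7, 29.8 and 68.0 CPM in the Rb-null libraries. Rb-null 4 was thus the highest library for this sum also, and TET-MYCN 3 the highest of its group. Each of the 5 was measured, none passed the test, and their part in the level of Psmb10 was not tested. The 8 microglia and macrophage markers did not single out Rb-null 4, with sums of 200.4 to 391 CPM in the TET-MYCN libraries and 177 to 385 CPM in the Rb-null libraries. Between the groups 5 of these markers had a positive log2 fold change and 3 a negative one. Only 1 was called, Mmp12, higher in TET-MYCN (6.56 ± 0.87, adjusted p = 0.0348, edgeR's quasi-likelihood test).

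**Figure D4:**
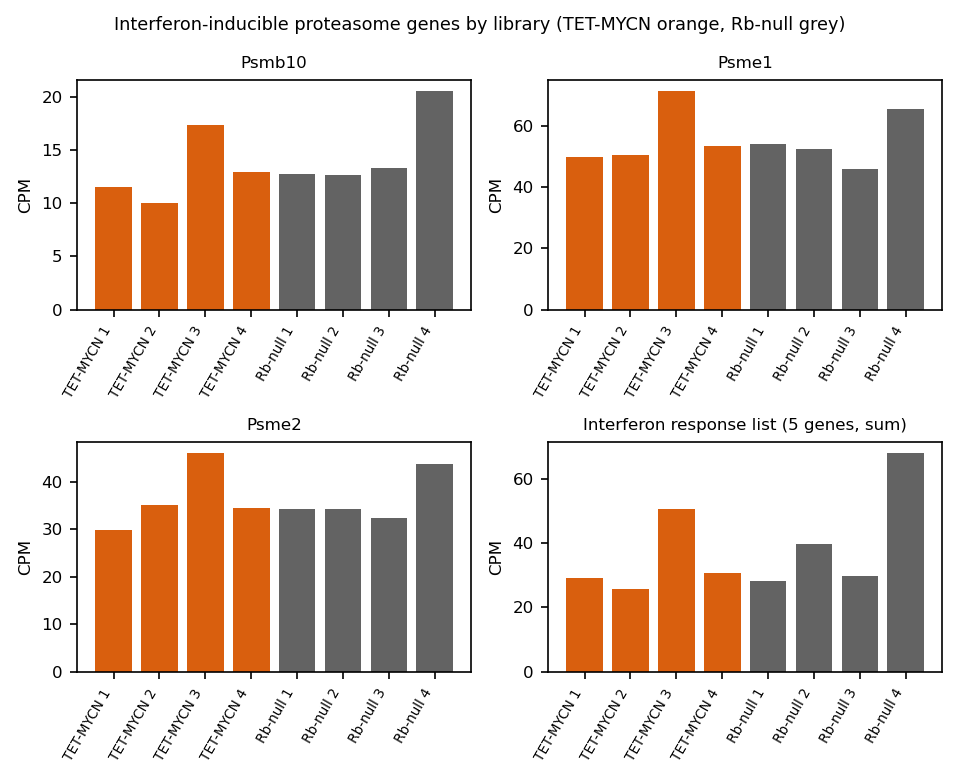
CPM of Psmb10, Psme1 and Psme2 and the summed CPM of 5 interferon response genes (y axes, from 0) in each library (x axes), TET-MYCN in orange and Rb-null in grey. Rb-null 4 is highest for Psmb10 (20.5 CPM) and for the interferon sum (68.0 CPM), while TET-MYCN 3 is highest for Psme1 (71.3 CPM) and Psme2 (46.0 CPM).

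Levels between genes were compared per kb of exon, since the subunits of a ring are needed in equal numbers. The constitutive core genes had a median of 99.8 CPM per kb in the TET-MYCN libraries and 91.8 CPM per kb in the Rb-null libraries, and the 6 base ATPases had 88.6 CPM per kb in TET-MYCN and 83.0 CPM per kb in Rb-null. The lid genes had 53.8 CPM per kb in TET-MYCN and 50.1 CPM per kb in Rb-null. The base assembly factors, which leave before the particle is complete, had 12.3 CPM per kb in TET-MYCN and 11.9 CPM per kb in Rb-null. Among the 14 constitutive core genes, Psmb6 was highest, at 165 CPM per kb in TET-MYCN and 151 CPM per kb in Rb-null. Psma2 was lowest, at 29.8 CPM per kb in TET-MYCN and 27.4 CPM per kb in Rb-null, a 5.53-fold span over the 8 libraries within these 14. Among the ATPases the span was 2.17-fold, from Psmc6 to Psmc3. Psma2 and Psma3 have exon lengths of 2911 and 2846 bases in the annotation used, so their per-kb levels depend on which transcripts the retina uses. The inducible Psmb10 averaged 9.87 ± 2.41 CPM per kb in TET-MYCN and 11.3 ± 2.92 CPM per kb in Rb-null (SD, n = 4 each). The thymus subunit Psmb11 averaged 0.476 ± 0.0696 CPM per kb in TET-MYCN and 0.366 ± 0.0847 CPM per kb in Rb-null.

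Genes that assemble, regulate or feed the proteasome were listed beside the subunits. Of 24 tested genes for assembly factors and associated proteins, 18 had a positive log2 fold change (median 0.09) and 0 passed the test in either direction, with 14 positive without TET-MYCN 3. Nfe2l1, the regulator named above, was 1 of the 6 with a negative value, at -0.19 ± 0.10 (-0.14 without TET-MYCN 3). Psmg4, a chaperone of alpha ring assembly, had the smallest p. In TET-MYCN libraries 1 to 4 it stood at 18.5, 12.4, 21.2 and 19.6 CPM, against 11.7, 9.96, 9.11 and 13.2 CPM in Rb-null libraries 1 to 4. Only TET-MYCN 2 overlapped the Rb-null libraries, and the log2 fold change was 0.70 ± 0.19 (adjusted p = 0.168, edgeR's quasi-likelihood test), with 0.61 without TET-MYCN 3. Ubqln4 and Rad23b, shuttles that carry ubiquitinated proteins to the proteasome, had log2 fold changes of 0.22 ± 0.10 and 0.19 ± 0.09. For Ubqln4 the TET-MYCN libraries spanned 137 to 169 CPM and the Rb-null libraries 123 to 128 CPM. For Rad23b the TET-MYCN libraries spanned 209 to 236 CPM and the Rb-null libraries 183 to 203 CPM. In both genes the groups did not overlap, as for 4.36% of all genes tested in this direction. Of 11 tested genes for ubiquitin and its early handling, 8 were positive (median 0.04) and 0 passed. The smallest p-values went with Rps27a (0.51 ± 0.15), which encodes ubiquitin fused to a ribosomal protein, Uba6 (0.28 ± 0.20), a ubiquitin-activating enzyme, and Nsfl1c (0.09 ± 0.11), a cofactor of the unfolding ATPase Vcp. Without TET-MYCN 3 these were 0.42 for Rps27a, 0.45 for Uba6 and 0.042 for Nsfl1c. In TET-MYCN 3 Rps27a stood at 401 CPM, the highest of the 8 libraries, and Uba6 at 19.1 CPM, the lowest.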

How the data were processed

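The authors deposited 1 table of whole-number read counts per gene symbol for each of 8 libraries, without normalization. Per the submitters' processing notes, CASAVA 1.8.2, TopHat2 2.0.8b and HTSeq 0.5.4p3 were used with build mm9. Annotation and strand setting were not given in the sources used here. Reads assigned to no gene feature, to several genes or aligned to several places (28.3% to 31.7% per file) stayed out of library sizes and tests.

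Groups came from the labels. Counts were filtered with filterByExpr (15106 of 23284 genes kept), scaled by TMM and tested with edgeR 4.0.16 (R 4.3.3; quasi-likelihood F test, robust, intercept and group, Benjamini-Hochberg over all genes tested, threshold 0.05). Fold changes are TET-MYCN over Rb-null, and the SE is the size of the log2 fold change divided by √F. Alternatives used limma 3.58.1, DESeq2 1.42.0, other scalings and filters, the replicate block, and libraries left out. The procedure was tested on simulated counts. Within each group all libraries differed by more than sampling noise.

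Exon lengths came from GENCODE M21 (GRCm38), used for lengths only, and matched 42 of 42 members and 89.2% of tested genes. The 38 promoter windows of 35 members were RefSeq's, and 34 continued into a known transcript of the gene. Genes with full values were the 3 smallest p per symbol class, the catalytic subunits, the activators and the restricted subunits. Psma4 (for its promoter) and Psmd2 were added after their values were seen. Some genes of the lists are not reported here and stay out of the counts and sums. The members, lists and rules were chosen with earlier results of these data known. Figures used Python 3.11.15 and matplotlib 3.10.9.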

Additional observations from a re-analysis of the deposited data

Results flagged for a closer look

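In groups of 4 libraries, a library was singled out where its gap to the nearest of the others exceeded the critical share of the group's range. Chance does this for about 1 in 20 separate groups, and 84 groups of member genes gave 13 such cases. The members share the same libraries and move together, so these groups are not separate trials. The share over all genes tested is not given, and the count is not read as an excess. In the TET-MYCN libraries they were all the value of TET-MYCN 3, which was the highest at 129 CPM for Psma4, 127 CPM for Psma6, 155 CPM for Psmb1, 114 CPM for Psmb2, 164 CPM for Psmc1, 162 CPM for Psmc2, 144 CPM for Psmc5 and 71.3 CPM for Psme1. In the Rb-null libraries Rb-null 4 was the highest at 180.3 CPM for Psmb4, 20.5 CPM for Psmb10, 136 CPM for Psmc2 and 43.8 CPM for Psme2, and Rb-null 1 at 2.09 CPM for Psmb11. Of the summed gene lists, red blood cell markers stood apart in Rb-null 3, at 6.10 CPM, and the ubiquitin genes in Rb-null 4, at 2634 CPM.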

How the results depend on the processing

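The count of members called was 0 under every alternative run. The count over all genes tested moved from 9 to 17 with no filter on low counts, 530 with DESeq2, 0 with limma-voom, 3 with the replicate block, 0 without Rb-null 2 and 3 together, 41 without Rb-null 1 and TET-MYCN 3 together, and 0 to 230 with 1 library left out (230 without TET-MYCN 3, 132 without TET-MYCN 2, 1 or 0 without each other one). Members with a positive log2 fold change numbered 19 to 39 of 41 with 1 library left out, the lowest without TET-MYCN 3, and 16 without Rb-null 1 and TET-MYCN 3. In that last fit the medians turned to -0.034 for the core, -0.011 for the regulatory particle and -0.024 for all tested members, and the single values to -0.011 for Psma6, -0.13 for Psmb5, -0.025 for Psmb6, -0.017 for Psmb7, -0.011 for Psmc3, -0.10 for Psme1 and -0.16 for Psme2. With 1 library left out the core median ran between -0.030 and 0.20 and that of all tested members between -0.0084 and 0.15. Values that changed sign there ran between -0.0084 and 0.21 for Psma6, -0.099 and 0.070 for Psmb5, -0.0071 and 0.25 for Psmc3ip, -0.089 and 0.14 for Psme1, and -0.12 and 0.10 for Psme2. Without Rb-null 2 and 3, Psmb5, Psme1 and Psme2 turned to -0.060, -0.089 and -0.099. With the replicate block Psmb5 turned to -0.00082, and the fit changed the sign of no other named member. Same-numbered libraries deviated from their group means with correlations of -0.040, -0.062, -0.12 and -0.29, so the numbers did not pair the libraries. Under other scalings and filters no median or named member changed sign. With 4 libraries a group, differences within 1.5-fold in CPM of the bulk tissue are the size these data bound for most members. The causes were not tested.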
